A study of Homo sapiens with 12 samples.

Results

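HCC38 was compared at baseline with MDA-MB-468 and SUM149PT, 3 established human breast cancer cell lines of the triple-negative type. The libraries were those of cells that received the non-targeting control oligonucleotide, labelled LNA NS, and there were 2 libraries for each line, so 6 of the 12 libraries of the series entered the comparison. An LNA is a short antisense oligonucleotide built from locked nucleic acids, and all cells had been transfected with it at 50 nM for 24 h, with the medium changed after 6 h. The other 6 libraries came from the same lines given LNAs against the long non-coding RNA LINC01956, which the labels shorten to RP19, and served here only as a repeat of the comparison under another treatment. Poly-A RNA was sequenced with a strand-specific protocol and reads were counted for 63677 Ensembl genes.

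Each group was a single cell line, and the lines were grown in different media, so the line and its medium cannot be told apart. Nothing in the labels or methods states that R1 and R2 of a line came from separate cultures, and the p-values therefore measure the spread between these libraries, which may be technical. A gene was called higher or lower when edgeR's quasi-likelihood test gave an adjusted p under 0.1 with a change of more than 2-fold. It was called in both comparisons when this held against MDA-MB-468 and against SUM149PT in the same direction. Both comparisons used the same 2 HCC38 libraries. Levels are given as CPM, read counts scaled to the library size, which are not corrected for gene length, so they are compared between lines and not between genes. Values are listed for the replicates R1 and R2 in that order.

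Epithelial cells are held together by adherens junctions, tight junctions, desmosomes and gap junctions, and are anchored to the basement membrane by hemidesmosomes. In the epithelial-mesenchymal transition, factors of the ZEB, SNAI and TWIST families repress epithelial genes by binding E-box motifs, and the cells take on vimentin filaments and a fibroblast-like matrix. Basal-like breast cancers often mix both programmes with the keratins of the basal layer of the mammary gland. HCC38 was examined for these programmes, for its interferon-response genes and for genes that it did not express at all.

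The gene counts of the 6 control libraries ranged from 32187835 to 48229126, and those of HCC38 were 45544488 and 48229126. Replicate libraries correlated at 0.997 on the log2 CPM scale, whereas HCC38 correlated with SUM149PT at 0.895 to 0.899 and with MDA-MB-468 at 0.877 to 0.879. Of 19590 genes tested, HCC38 was higher than both lines for 2404 genes (12.3%) and lower than both for 1576 genes (8.04%). The corresponding numbers were 2133 and 2304 for MDA-MB-468, and 1696 and 2112 for SUM149PT. HCC38 also had more genes at 1 CPM or above in both libraries, 14093 against 13419 in MDA-MB-468 and 13424 in SUM149PT.

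Of the 3 markers given for HCC38, VIM and ZEB1 were highest in HCC38 and FN1 was not. VIM, which encodes the mesenchymal intermediate filament vimentin (chromosome 10, 17270240 to 17279592, GRCh37), was at 556 and 454 CPM in HCC38, 14.7 and 12.8 CPM in MDA-MB-468, and 161 and 177 CPM in SUM149PT. The HCC38 libraries lay above all others without overlap, and the log2 differences were 5.20 (SE 0.142, adjusted p = 4.1e-10) and 1.58 (SE 0.119, adjusted p = 8.5e-07). ZEB1, a zinc-finger repressor of epithelial genes, was at 2.97 and 3.46 CPM in HCC38, 0.188 and 0.364 CPM in MDA-MB-468, and 1.11 and 0.821 CPM in SUM149PT. Its log2 differences were 3.52 (SE 0.357, adjusted p = 6.8e-06) and 1.72 (SE 0.301, adjusted p = 0.00046), again without overlap. FN1, which encodes the matrix glycoprotein fibronectin, was at 458 and 667 CPM in HCC38, 37.3 and 37.9 CPM in MDA-MB-468, and 2072 and 1465 CPM in SUM149PT. FN1 was thus higher in HCC38 than in MDA-MB-468 but below SUM149PT in every library, with log2 differences of 3.90 (SE 0.206, adjusted p = 4.2e-08) and -1.65 (SE 0.186, adjusted p = 1.8e-05). In the knock-down libraries VIM and ZEB1 remained higher than in SUM149PT but by less than 2-fold, with log2 differences of 0.91 and 0.96, so neither was called there.

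Of 28 mesenchymal genes tested, 10 were higher in HCC38 than in both lines and 0 were lower, beside 12.3% and 8.04% of all tested genes. The higher members were VIM, ZEB1, PRRX1, SPARC, FBN1, POSTN, CALD1, ACTA2, CNN1 and AXL. The 2 comparisons differed in size. Against MDA-MB-468, 21 members were higher and 3 lower (24.2% and 20.6% of all tested genes), with a median log2 difference of 4.16. Against SUM149PT, 12 were higher and 4 lower (22.9% and 18.1% of all tested genes), with a median of 0.62. The median over all tested genes was 0.04 in both comparisons.

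SPARC, a matricellular glycoprotein of stromal cells, separated HCC38 most clearly among these. It was at 275 and 272 CPM in HCC38, 0.242 and 0.130 CPM in MDA-MB-468, and 0.270 and 0.394 CPM in SUM149PT. Both other lines lay near 0, and the log2 differences were 10.51 (SE 0.192, adjusted p = 5.3e-11) and 9.70 (SE 0.182, adjusted p = 1.9e-10). ACTA2, the smooth muscle actin of myoepithelial cells and myofibroblasts, showed the same order at a lower level, with 17.5 and 18.5 CPM in HCC38, 0.242 and 0.208 CPM in MDA-MB-468, and 0.649 and 0.624 CPM in SUM149PT. AXL, a receptor tyrosine kinase, and FBN1, which encodes the microfibril protein fibrillin, had intermediate levels in SUM149PT. AXL was at 424 and 428 CPM in HCC38, 2.07 and 1.84 CPM in MDA-MB-468, and 149 and 136 CPM in SUM149PT. FBN1 was at 36.9 and 47.9 CPM in HCC38, 0.538 and 0.468 CPM in MDA-MB-468, and 10.2 and 8.31 CPM in SUM149PT. POSTN, the matrix protein periostin, had counts in HCC38 alone, at 0.877 and 0.940 CPM, which was at least 22.9-fold above the limit that 3 counts over both MDA-MB-468 libraries allow and at least 20.4-fold above that for SUM149PT. CALD1, an actin-binding protein, was only just past the 2-fold limit against SUM149PT, with a log2 difference of 1.05 (SE 0.118, adjusted p = 1.8e-05), and was not called without SUM149PT R2 or in the knock-down libraries. CNN1, which encodes calponin, was not called against MDA-MB-468 without MDA-MB-468 R1.

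Other transcription factors of the transition did not share the order of ZEB1, and these were picked for description after their values were seen. SNAI2 was at 3.34 and 3.40 CPM in HCC38, 0.0269 and 0 CPM in MDA-MB-468, and 51.3 and 53.1 CPM in SUM149PT. TWIST1 was at 0.642 and 0.460 CPM in HCC38, 0.0269 and 0.0260 CPM in MDA-MB-468, and 22.3 and 24.1 CPM in SUM149PT. ZEB2 was at 0.471 and 0.640 CPM in HCC38, 0 CPM in both MDA-MB-468 libraries, and 4.97 and 4.80 CPM in SUM149PT. For all 3, HCC38 lay between the other lines, and its log2 differences from SUM149PT were -3.95, -5.40 and -3.13 (largest adjusted p = 7.6e-06). CDH2, the N-cadherin that often rises in mesenchymal cells, was at 25.1 and 28.4 CPM in HCC38 and 29.5 and 25.4 CPM in SUM149PT. The ranges overlapped and the log2 difference of -0.04 (SE 0.134) did not pass the test (adjusted p = 0.81), whereas MDA-MB-468 had only 0.108 and 0.208 CPM.

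**Figure D1:**
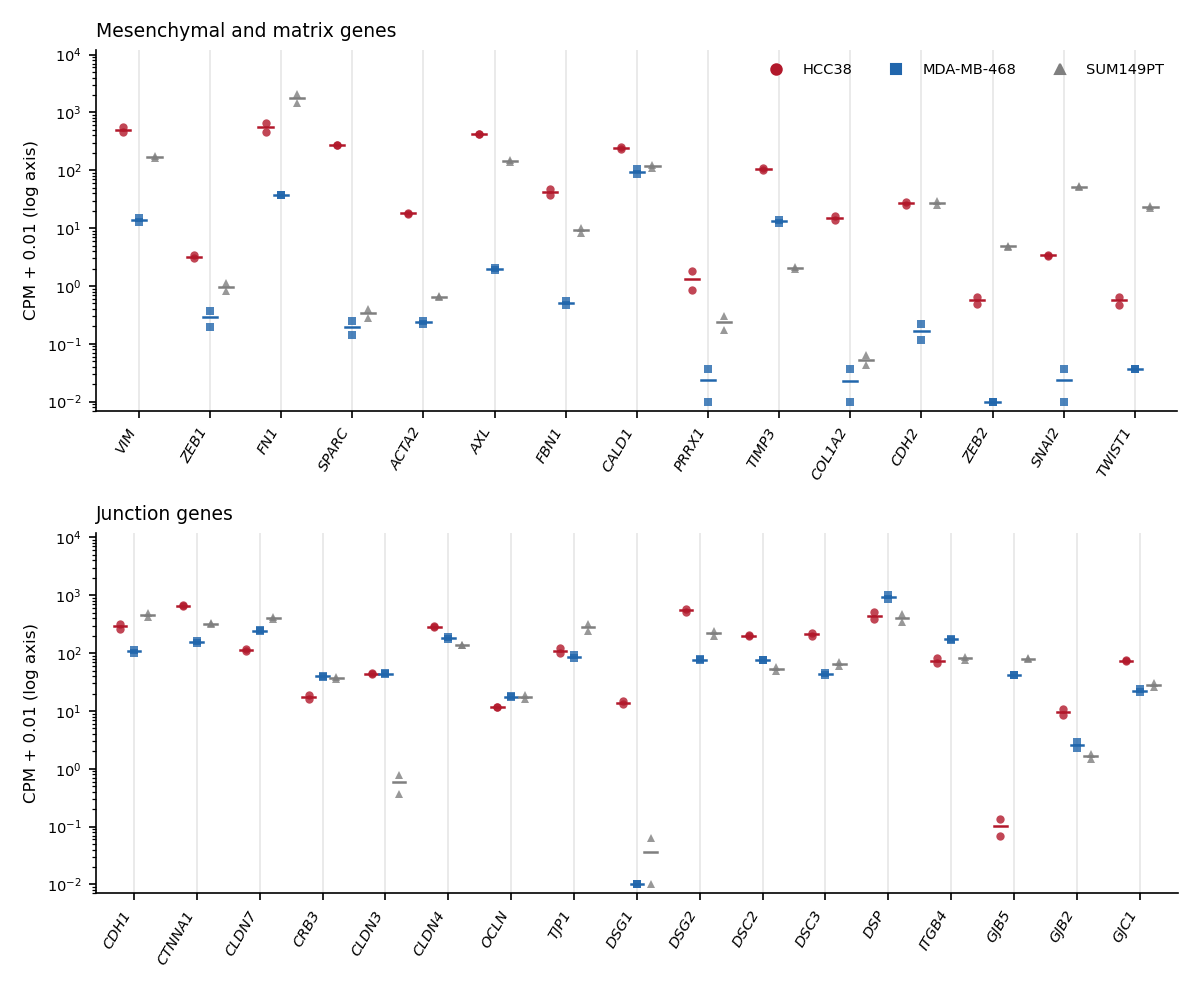
Levels of mesenchymal genes and junction genes in the 6 control libraries, as CPM + 0.01 on a log axis. Each dot is 1 library (HCC38 red circles, MDA-MB-468 blue squares, SUM149PT grey triangles) and short bars are means of 2 libraries; VIM, ZEB1 and SPARC are highest in HCC38, FN1 is highest in SUM149PT, and GJB5 is near 0 in HCC38 alone.

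Of 35 genes of the extracellular matrix and its remodelling, 7 were higher in HCC38 than in both lines and 0 were lower, beside 12.3% and 8.04% of all tested genes. The higher genes included COL1A2, BGN, FSTL1, MMP7, TIMP2 and TIMP3. Against MDA-MB-468, 25 members were higher and 4 lower (24.2% and 20.6% of all tested genes), with a median log2 difference of 3.27. Against SUM149PT, 9 were higher and 8 lower (22.9% and 18.1% of all tested genes), with a median of 0.28. COL1A2, a chain of type I collagen, was at 13.7 and 16.2 CPM in HCC38, 0 and 0.0260 CPM in MDA-MB-468, and 0.0541 and 0.0329 CPM in SUM149PT. The other lines together had only a few counts of it, and the ratio of HCC38 to SUM149PT was 337 with a 95% exact counting interval of 115 to 1637. TIMP2 and TIMP3 encode inhibitors of metalloproteinases. TIMP2 was at 233 and 240.5 CPM in HCC38 against 35.6, 36.0, 30.4 and 32.2 CPM in the MDA-MB-468 and SUM149PT libraries, and TIMP3 had means of 105 ± 4.86 CPM in HCC38, 13.1 ± 1.25 CPM in MDA-MB-468 and 2.02 ± 0.120 CPM in SUM149PT (SD, n = 2 libraries). The matrix proteoglycan biglycan (BGN) and the secreted glycoprotein FSTL1 followed the order of AXL, with SUM149PT between the other lines.

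Of 79 epithelial junction genes in 5 lists, all of them tested, 14 were higher in HCC38 than in both lines and 7 were lower. These shares of 17.7% and 8.86% were near the 12.3% and 8.04% of all tested genes, and the median log2 differences were -0.11 against MDA-MB-468 and 0.02 against SUM149PT. The counts include the gap junction list, which held only called connexins, 4 higher and 3 lower. CDH1, which encodes E-cadherin (chromosome 16, 68771195 to 68869440, GRCh37), was at 266 and 324 CPM in HCC38, 101 and 115 CPM in MDA-MB-468, and 499.6 and 413 CPM in SUM149PT. HCC38 lay between the other lines, and CDH1 was called higher than in MDA-MB-468 (log2 difference 1.45, SE 0.130, adjusted p = 2.7e-06) but was under 2-fold below SUM149PT (-0.63, SE 0.128, adjusted p = 0.0013). EPCAM, the epithelial cell adhesion molecule, was at 483 and 403 CPM in HCC38, 375 and 386 CPM in MDA-MB-468, and 258 and 295 CPM in SUM149PT, and was called in neither comparison. Among the adherens junction genes, CTNNA1, the alpha-catenin that links cadherins to actin, was the only one of 14 that was higher in both comparisons, at 640.4 and 677 CPM in HCC38, 149.5 and 165 CPM in MDA-MB-468, and 331 and 316 CPM in SUM149PT. Its log2 difference from SUM149PT was 1.02, close to the 2-fold limit, and the call was lost without SUM149PT R2 or HCC38 R2. CDH5, the cadherin of endothelial cells, was the only one lower in both.

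Of 34 tight junction and polarity genes, 3 were higher (CLDN11, CGNL1 and JAM3) and 3 were lower (CLDN7, CRB3 and PARD6A) than in both lines, or 8.82% each beside 12.3% and 8.04% of all tested genes. Without HCC38 R2 there was 1 in each direction, and in the knock-down libraries 1 was lower. CLDN7, a claudin of epithelial tight junctions, was at 119 and 111 CPM in HCC38, 251 and 237 CPM in MDA-MB-468, and 384 and 415 CPM in SUM149PT. HCC38 was lowest without overlap, and the log2 differences were -1.09 (SE 0.0933, adjusted p = 1.8e-06) and -1.80 (SE 0.0949, adjusted p = 5.5e-08). Other claudins did not share this order. CLDN3 was at 42.8 and 44.9 CPM in HCC38 and 43.1 and 45.2 CPM in MDA-MB-468, which overlapped, but at only 0.784 and 0.361 CPM in SUM149PT. CLDN4 was at 295 and 279 CPM in HCC38, 192 and 178 CPM in MDA-MB-468, and 137 and 139 CPM in SUM149PT, and passed the 2-fold limit only against SUM149PT. OCLN, the tight junction protein occludin, was lower in HCC38 by less than 2-fold in both comparisons, with log2 differences of -0.62 and -0.58. TJP1, the scaffold protein ZO-1, was below SUM149PT only (log2 difference -1.36, SE 0.142, adjusted p = 1.1e-05). Several of these calls lay close to the limit. CLDN7 was not called against MDA-MB-468 in the knock-down libraries, CGNL1 was not called against MDA-MB-468 by DESeq2 or without MDA-MB-468 R1 or HCC38 R2, and JAM3 was not called without HCC38 R2.

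CRB3, a subunit of the Crumbs complex that sets apical polarity, was at 18.6 and 16.1 CPM in HCC38, 38.8 and 40.3 CPM in MDA-MB-468, and 35.3 and 38.7 CPM in SUM149PT. HCC38 was at about the same distance below each line, with log2 differences of -1.19 (SE 0.116, adjusted p = 5.2e-06) and -1.09 (SE 0.117, adjusted p = 1.2e-05), and the call against SUM149PT was lost without HCC38 R2 and in the knock-down libraries. AP1M2, a subunit of the clathrin adaptor that sorts proteins to the basolateral membrane of epithelial cells, was near 0 in HCC38. It was at 1.13 and 1.12 CPM in HCC38, 564 and 560.2 CPM in MDA-MB-468, and 160.0 and 158 CPM in SUM149PT. The HCC38 libraries were far below all others, with log2 differences of -8.96 (SE 0.127, adjusted p = 1.6e-11) and -7.14 (SE 0.121, adjusted p = 1.1e-10). The promoters of both genes hold the E-box CACCTG or its reverse complement, the letters that ZEB and SNAI factors bind. The 250 bases before the RefSeq start of AP1M2 (chr19:10587313-10587562, minus strand) and of CRB3 (chr19:6464021-6464270, plus strand) in GRCh38.p14 are shown on the gene's strand, 5′ to 3′, with the E-boxes in capitals, because these genes were lower in HCC38 in both comparisons and had several copies.
AP1M2: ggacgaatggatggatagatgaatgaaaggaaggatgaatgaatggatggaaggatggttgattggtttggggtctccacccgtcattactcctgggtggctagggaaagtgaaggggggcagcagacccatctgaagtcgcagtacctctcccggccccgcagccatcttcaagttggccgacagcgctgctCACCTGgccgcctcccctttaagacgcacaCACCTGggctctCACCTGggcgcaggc
CRB3: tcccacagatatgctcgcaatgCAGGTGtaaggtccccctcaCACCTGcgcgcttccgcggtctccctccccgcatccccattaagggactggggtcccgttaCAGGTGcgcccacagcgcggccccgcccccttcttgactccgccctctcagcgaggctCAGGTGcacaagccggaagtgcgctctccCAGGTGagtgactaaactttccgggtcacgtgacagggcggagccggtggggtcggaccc
The E-box occurred 3 times in the AP1M2 stretch and 5 times in that of CRB3. Over RefSeq windows of 300 bases, 250 before and 50 after each start, CACCTG on either strand was found in 20.6% of 35116 windows. It was found in 23 of 70 windows of the junction genes (32.9%), in 13 of 26 windows of the epithelial identity genes (50.0%) and in 4 of 46 windows of the mesenchymal genes (8.70%). Windows were at hand for 48 of the 79 junction genes, and the motif was in 15 of 35 junction genes called in neither direction as well as in 4 of 10 that were higher and 3 of 3 that were lower, so these letters were not limited to the genes that were lower in HCC38. A match is a description of the sequence and not of binding.

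Of 14 desmosome genes tested, 5 were higher in HCC38 than in both lines (DSG1, DSG2, DSC2, DSC3 and PPL) and 0 were lower, beside 12.3% and 8.04% of all tested genes. Desmogleins and desmocollins are the cadherins that join desmosomes of neighbouring cells. DSG2 was at 513 and 581 CPM in HCC38, 74.7 and 78.2 CPM in MDA-MB-468, and 244 and 195 CPM in SUM149PT. DSC3 was at 202 and 225 CPM in HCC38, 42.1 and 44.8 CPM in MDA-MB-468, and 70.5 and 60.6 CPM in SUM149PT. DSG1 was at 13.2 and 14.6 CPM in HCC38 against 0 CPM in both MDA-MB-468 libraries and 0.0541 and 0 CPM in SUM149PT, a ratio to SUM149PT of 469 with a 95% exact counting interval of 129.6 to 3877. These cadherins did not overlap between HCC38 and the other lines. PPL, which encodes the plaque protein periplakin, was at 103 and 134 CPM in HCC38, 0.0538 and 0.156 CPM in MDA-MB-468, and 51.2 and 45.5 CPM in SUM149PT. DSP, the plaque protein desmoplakin, did not follow them. It was at 383 and 505 CPM in HCC38, 858 and 994 CPM in MDA-MB-468, and 472 and 347 CPM in SUM149PT, overlapping with the last. DSP was called lower than in MDA-MB-468 only (log2 difference -1.06, SE 0.163, adjusted p = 0.00017), and that call was lost without HCC38 R1 or MDA-MB-468 R2 and in the knock-down libraries.

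Of 7 gap junction genes tested, which encode connexins, 4 were higher (GJA1, GJB2, GJB6 and GJC1) and 3 were lower (among them GJB5) than in both lines. The list held only called connexins, so its shares were set by its choice. Over all 11 tested connexins 4 were likewise higher and 3 lower, beside 12.3% and 8.04% of all tested genes. GJB5 was at 0.128 and 0.0600 CPM in HCC38, 41.3 and 41.2 CPM in MDA-MB-468, and 77.6 and 82.4 CPM in SUM149PT. HCC38 had almost none of it, and the log2 differences were -8.75 (SE 0.207, adjusted p = 2.1e-10) and -9.70 (SE 0.205, adjusted p = 2e-10). GJC1, in contrast, was at 71.7 and 75.3 CPM in HCC38, 21.2 and 23.9 CPM in MDA-MB-468, and 29.9 and 26.1 CPM in SUM149PT, and GJB6 was at 1.71 and 1.78 CPM in HCC38 with no counts in either other line. Of 10 hemidesmosome and laminin genes, 1 was higher in both comparisons and 0 were lower. This was 10% and 0%, beside 12.3% and 8.04% of all tested genes. The higher gene was ITGA3, an integrin subunit that binds laminin. Its log2 difference from SUM149PT of 1.04 was called neither without SUM149PT R2 nor without HCC38 R2. ITGB4, the integrin beta4 of hemidesmosomes, was at 66.5 and 80.9 CPM in HCC38, 170.3 and 175 CPM in MDA-MB-468, and 85.2 and 76.3 CPM in SUM149PT, and was lower than in MDA-MB-468 alone.

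Of 29 genes of epithelial identity tested, 7 were lower in HCC38 than in both lines (among them OVOL2, KLF5, TFAP2A, MUC1, AP1M2 and SFN) and 1 was higher (ELF5). This was 24.1% and 3.45%, beside 8.04% and 12.3% of all tested genes, and the median log2 differences were -1.01 and -0.51. KLF5, a transcription factor of basal and luminal progenitors, was at 14.4 and 18.4 CPM in HCC38, 125 and 143 CPM in MDA-MB-468, and 70.5 and 55.7 CPM in SUM149PT. SFN, the epithelial 14-3-3 sigma protein, was at 168 and 157 CPM in HCC38, 590.1 and 616 CPM in MDA-MB-468, and 643 and 704 CPM in SUM149PT. In both the HCC38 libraries were lowest without overlap, and TFAP2A, the AP-2 alpha transcription factor, had log2 differences of -1.38 and -1.46. MUC1, an apical mucin, was lower in both comparisons in the control libraries, but not against SUM149PT in the knock-down libraries. OVOL2, a repressor of ZEB1, had a log2 difference of only -1.01 from MDA-MB-468, and that call was lost under upper-quartile scaling, without the filter on low counts, without MDA-MB-468 R1 or HCC38 R2, and in the knock-down libraries. ELF5, a factor of luminal progenitors, was at 1.45 and 1.14 CPM in HCC38, 0.188 and 0.0779 CPM in MDA-MB-468, and 0 CPM in SUM149PT. GRHL2 and ESRP1, which maintain epithelial transcription and splicing and were picked after their values were seen, were called in neither comparison.

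Of 19 basal genes tested, 7 were lower in HCC38 than in both lines, and 6 of these were keratins (KRT5, KRT6A, KRT6B, KRT14, KRT16 and KRT17, beside TRIM29). A further 7 were higher, and these were not keratins (TP63, SOX10, CRYAB, MIA, NGFR, MME and EN1). Each was 36.8% of the list, beside 8.04% and 12.3% of all tested genes. KRT5, the type II keratin of basal cells (chromosome 12, 52908359 to 52914314, GRCh37), was at 58.0 and 61.4 CPM in HCC38, 2558 and 2277 CPM in MDA-MB-468, and 1901 and 1885 CPM in SUM149PT. Its log2 differences were -5.34 (SE 0.109, adjusted p = 1.1e-10) and -4.99 (SE 0.108, adjusted p = 2e-10), with no overlap. KRT14, its type I partner, was at 0.577 and 0.360 CPM in HCC38, 16.7 and 15.8 CPM in MDA-MB-468, and 57.8 and 61.3 CPM in SUM149PT. KRT17 was at 0.577 and 0.500 CPM in HCC38, 158 and 168 CPM in MDA-MB-468, and 419 and 405 CPM in SUM149PT, with log2 differences of -8.23 (SE 0.140, adjusted p = 3.5e-11) and -9.57 (SE 0.144, adjusted p = 5.6e-11). KRT6A, KRT6B, KRT14, KRT16 and KRT17 have near-identical copies, and the way the counting divided shared reads makes their separate levels uncertain.

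The higher basal genes include a group known from neural crest and myoepithelial cells. SOX10, a transcription factor of the neural crest and of mammary progenitors, was at 9.05 and 8.18 CPM in HCC38, 0.269 and 0.260 CPM in MDA-MB-468, and 0.135 and 0.394 CPM in SUM149PT. NGFR, the low-affinity nerve growth factor receptor, was at 32.1 and 36.0 CPM in HCC38, 0.134 and 0.0779 CPM in MDA-MB-468, and 0.108 and 0.394 CPM in SUM149PT. CRYAB, a small heat shock protein, was at 46.0 and 42.3 CPM in HCC38, 8.52 and 7.92 CPM in MDA-MB-468, and 0.162 and 0.197 CPM in SUM149PT. All 3 were highest in HCC38 without overlap, with log2 differences of 5.01 and 5.07 for SOX10, 8.29 and 7.14 for NGFR, and 2.42 and 7.93 for CRYAB. TP63, the p53 relative that drives basal keratins, was at 2.10 and 1.92 CPM in HCC38, 0.968 and 0.494 CPM in MDA-MB-468, and 0.486 and 0.526 CPM in SUM149PT, and moved in the opposite direction to those keratins.

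Of 18 luminal genes tested, 4 were lower than in both lines (KRT8, ESR1, FOXA1 and AGR2) and 2 were higher (ERBB2 and KIT), or 22.2% and 11.1% beside 8.04% and 12.3% of all tested genes. KRT8, a keratin of simple epithelia, was at 365 and 339 CPM in HCC38, 1681 and 1614 CPM in MDA-MB-468, and 1345 and 1447 CPM in SUM149PT, with log2 differences of -2.23 (SE 0.0926, adjusted p = 7.3e-09) and -1.99 (SE 0.0918, adjusted p = 2e-08). Its partner KRT18 was at 223 and 192 CPM in HCC38, 499 and 432 CPM in MDA-MB-468, and 361 and 385 CPM in SUM149PT, and was more than 2-fold lower than in MDA-MB-468 only. FOXA1, a pioneer factor of the luminal lineage, was at 1.52 and 1.72 CPM in HCC38, 52.8 and 56.3 CPM in MDA-MB-468, and 17.5 and 17.5 CPM in SUM149PT. ESR1, the oestrogen receptor gene, was low in all lines of this receptor-negative type, and lowest in HCC38 at 0.0855 and 0.160 CPM against 6.24 and 7.51 CPM in MDA-MB-468 and 2.89 and 2.30 CPM in SUM149PT.

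**Figure D2:**
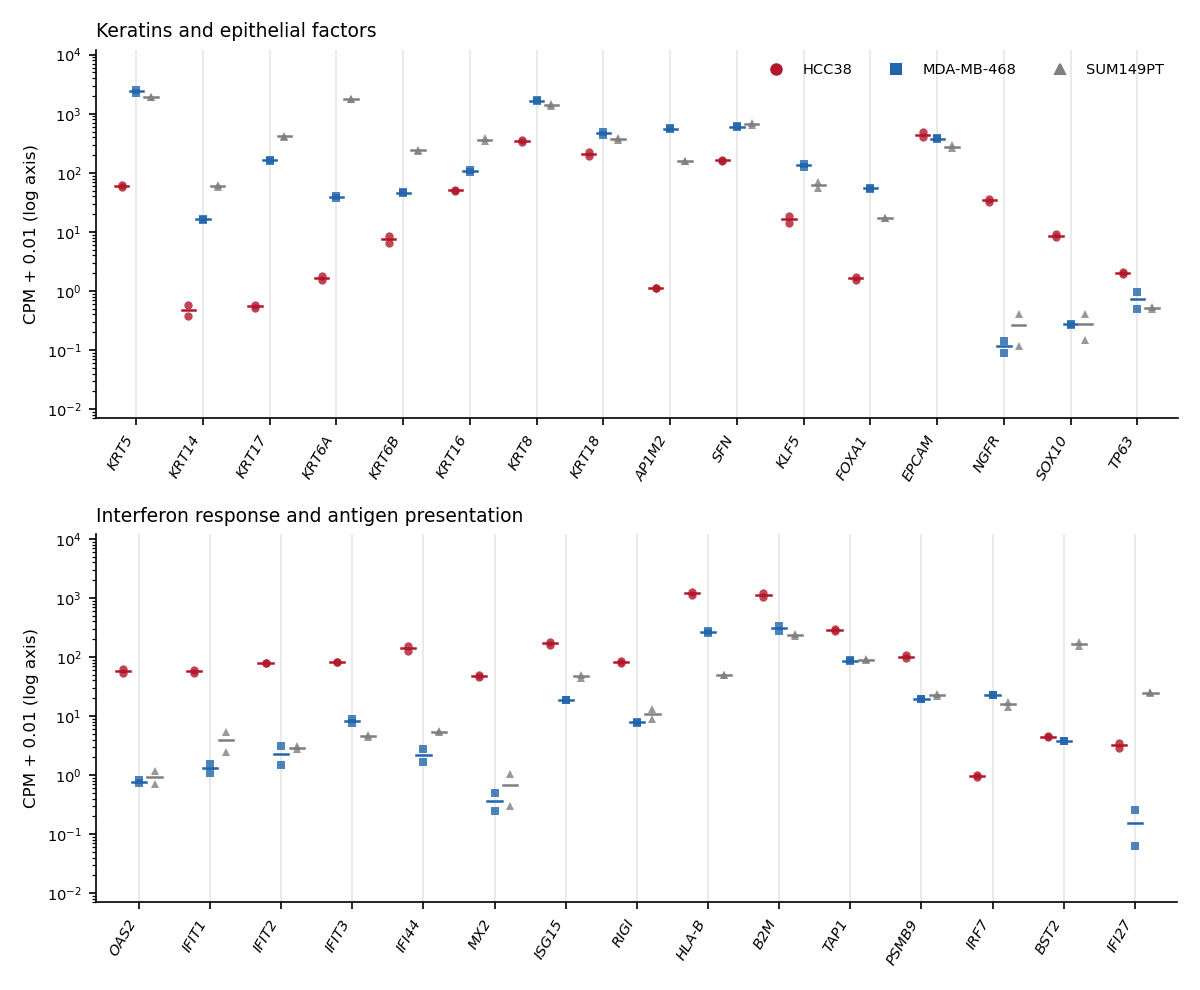
Levels of keratin, basal and epithelial genes and of interferon-response genes in the 6 control libraries, as CPM + 0.01 on a log axis. Each dot is 1 library (HCC38 red circles, MDA-MB-468 blue squares, SUM149PT grey triangles) and short bars are means of 2 libraries; KRT5 and KRT17 are lowest in HCC38 and IFI44, IFIT2 and OAS2 are highest there.

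Interferon-response and antigen-presentation genes were the list with the largest number of higher members among the 18 lists examined. Its share was equalled only by the 7 gap junction genes, a list of called connexins only (4 of all 11 tested connexins were higher). Of 42 interferon-response and antigen-presentation genes tested, 24 were higher in HCC38 than in both lines and 1 was lower. This was 57.1% and 2.38%, beside 12.3% and 8.04% of all tested genes. The median log2 differences were 2.42 against MDA-MB-468 and 1.80 against SUM149PT. IFIT1 is an antiviral protein that binds foreign RNA caps, and ISG15 is a ubiquitin-like modifier. IFIT1 was at 59.9 and 53.9 CPM in HCC38, 1.56 and 1.07 CPM in MDA-MB-468, and 5.38 and 2.43 CPM in SUM149PT. ISG15 was at 178 and 162 CPM in HCC38, 18.4 and 18.8 CPM in MDA-MB-468, and 44.8 and 49.9 CPM in SUM149PT. Both were highest in HCC38 without overlap, with log2 differences of 5.44 (SE 0.308, adjusted p = 7.2e-08) and 3.84 (SE 0.272, adjusted p = 5.1e-07) for IFIT1 and of 3.19 (SE 0.110, adjusted p = 2e-09) and 1.84 (SE 0.104, adjusted p = 8.8e-08) for ISG15. Genes of this response carry the interferon-stimulated response element, which was searched as GAAA, any 2 bases and GAAA on either strand, a motif chosen after the values were seen. The 250 bases before the RefSeq starts of IFIT1 (chr10:89392373-89392622, plus strand) and ISG15 (chr1:1013247-1013496, plus strand) in GRCh38.p14 are shown 5′ to 3′ with the element in capitals, as members that moved together.
IFIT1: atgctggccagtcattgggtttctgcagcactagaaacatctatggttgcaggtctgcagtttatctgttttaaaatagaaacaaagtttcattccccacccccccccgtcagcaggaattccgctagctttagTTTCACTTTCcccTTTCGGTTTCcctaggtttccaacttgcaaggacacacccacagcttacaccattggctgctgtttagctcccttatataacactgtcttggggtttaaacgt
ISG15: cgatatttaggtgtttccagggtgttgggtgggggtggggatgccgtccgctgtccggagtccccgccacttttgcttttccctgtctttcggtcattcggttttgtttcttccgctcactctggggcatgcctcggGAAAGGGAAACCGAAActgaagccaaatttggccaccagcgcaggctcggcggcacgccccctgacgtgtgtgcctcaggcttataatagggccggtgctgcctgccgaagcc
Each stretch held 2 matches, and those of ISG15 overlapped each other. The element was found in 3.57% of all 35116 windows and in 22 of 40 windows of the list (55.0%), which stood for 32 of its 42 genes. It was in 11 of 19 genes that were higher in HCC38 and in 7 of 13 that were called in neither direction, so it marked the list and not the members that were higher.

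Some other members of the response were also highest in HCC38. IFI44 was at 152 and 129 CPM in HCC38, 2.74 and 1.66 CPM in MDA-MB-468, and 5.65 and 5.26 CPM in SUM149PT. IFIT2 was at 80.1 and 78.9 CPM in HCC38, 3.06 and 1.48 CPM in MDA-MB-468, and 2.73 and 3.09 CPM in SUM149PT. OAS2, a sensor of double-stranded RNA, was at 53.8 and 63.04 CPM in HCC38, 0.806 and 0.727 CPM in MDA-MB-468, and 1.16 and 0.690 CPM in SUM149PT. In each of these the other lines had a few CPM at most, and HCC38 stood apart. B2M and TAP1, which serve class I antigen presentation, were expressed in all lines and differed by smaller factors. B2M, the light chain of class I molecules, was at 1216 and 1026 CPM in HCC38, 338 and 280.3 CPM in MDA-MB-468, and 225 and 249 CPM in SUM149PT. TAP1, a subunit of the peptide transporter, was at 278 and 292 CPM in HCC38, 87.6 and 84.8 CPM in MDA-MB-468, and 92.4 and 87.5 CPM in SUM149PT. CD274, which encodes the checkpoint ligand PD-L1, was higher too, at 27.5 and 26.0 CPM in HCC38, 0.753 and 0.416 CPM in MDA-MB-468, and 8.95 and 9.53 CPM in SUM149PT. HLA genes share reads with their relatives, so the HLA genes among the 24 are less certain.

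IRF7, the factor that amplifies type I interferon production, was the only member lower in HCC38 than in both lines. Of the other members not higher than in both, 10 were called in 1 comparison, 6 in neither and 1 in opposite directions. It was at 0.920 and 1.00 CPM in HCC38, 22.8 and 23.0 CPM in MDA-MB-468, and 17.4 and 14.4 CPM in SUM149PT. HCC38 was lowest without overlap, with log2 differences of -4.57 (SE 0.172, adjusted p = 3.5e-09) and -4.05 (SE 0.173, adjusted p = 1.2e-08). All cells had received an oligonucleotide, and its part in the level of these genes was not tested, since no untransfected cells were examined here.

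**Figure D3:**
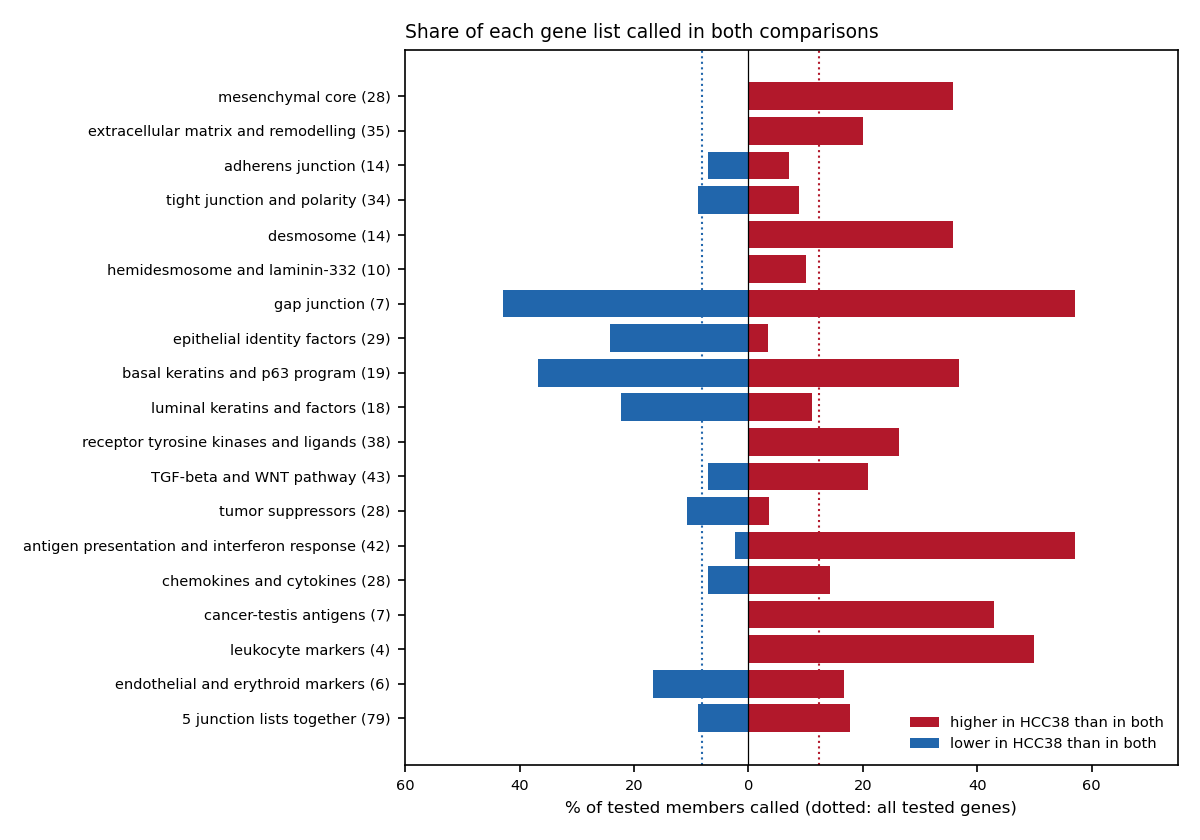
Share of the tested members of each gene list, in percent, that was higher (red, to the right) or lower (blue, to the left) in HCC38 than in both other lines. The number of tested members is in parentheses and dotted lines mark 12.3% and 8.04%, the shares over all 19590 tested genes. The interferon list reaches 57.1% higher, the mesenchymal list 35.7%, and the epithelial identity list is lower in 24.1%. The gap junction list held only called connexins.

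Among receptor tyrosine kinases and their ligands, 10 of 38 tested were higher in HCC38 than in both lines and 0 were lower, beside 12.3% and 8.04% of all tested genes. FGFR1, a receptor for fibroblast growth factors, was at 186 and 216 CPM in HCC38, 55.3 and 59.9 CPM in MDA-MB-468, and 8.68 and 8.18 CPM in SUM149PT. FGF2, one of its ligands, was at 108 and 101 CPM in HCC38, 2.98 and 3.12 CPM in MDA-MB-468, and 7.16 and 6.80 CPM in SUM149PT. DDR2, a receptor for fibrillar collagen, was at 28.1 and 35.9 CPM in HCC38, 0.511 and 0.649 CPM in MDA-MB-468, and 1.27 and 0.591 CPM in SUM149PT. Receptor and ligand of the FGF pathway were therefore both highest in HCC38 without overlap, and the smallest log2 difference among the 3 genes was 1.80 (FGFR1 against MDA-MB-468, SE 0.108, adjusted p = 1.1e-07). ERBB2, the HER2 receptor, was at 157 and 172 CPM in HCC38 against 59.5, 68.1, 60.2 and 50.3 CPM in the other 4 libraries, log2 differences of 1.37 and 1.57.

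In the TGF-beta and WNT pathways 9 of 43 tested genes were higher than in both lines and 3 were lower (20.9% and 6.98%, beside 12.3% and 8.04% of all tested genes). FZD7, a WNT receptor, was at 96.8 and 100.3 CPM in HCC38, 16.3 and 18.6 CPM in MDA-MB-468, and 12.8 and 11.5 CPM in SUM149PT. TCF7, a transcription factor of the WNT pathway, was at 110.2 and 124 CPM in HCC38, 37.3 and 35.0 CPM in MDA-MB-468, and 5.95 and 6.11 CPM in SUM149PT. SFRP1, a secreted WNT inhibitor, was lower, at 41.7 and 42.8 CPM in HCC38, 145 and 145 CPM in MDA-MB-468, and 549.8 and 479 CPM in SUM149PT. The WNT ligand WNT10A and the WNT5A receptor ROR1 were also lower in both comparisons, whereas the inhibitor DKK3 was higher, so receptors and inhibitors did not move in 1 direction. TGFB3, a ligand of the TGF-beta family, was at 7.53 and 8.06 CPM in HCC38, 1.10 and 0.909 CPM in MDA-MB-468, and 2.00 and 2.86 CPM in SUM149PT. SMAD2, a transducer of that pathway, was called higher in both comparisons, but not against SUM149PT without HCC38 R1.

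Of 28 chemokines and cytokines tested, 15 lay between the other lines, past the limits in opposite directions, beside 5.18% of all tested genes. CXCL5, CXCL6, CXCL12 and CCL2 were higher in HCC38 than in both, and IL18 and TSLP were lower. These shares of 14.3% and 7.14% were near the 12.3% and 8.04% of all tested genes. CXCL6, a neutrophil attractant, was at 12.9 and 10.9 CPM in HCC38, 0 CPM in both MDA-MB-468 libraries, and 0.459 and 0.756 CPM in SUM149PT. IL18 was at 9.73 and 8.66 CPM in HCC38, 38.3 and 34.7 CPM in MDA-MB-468, and 51.6 and 61.1 CPM in SUM149PT. Cancer-testis antigens are germline genes switched on in tumours, and 15 of the 22 listed were not tested. Of the 7 tested, MAGEA4, MAGEA10 and PRAME were higher in HCC38 than in both lines and 0 were lower than in both. This was 42.9% and 0% of those tested, beside 12.3% and 8.04% of all tested genes. A gene near 0 in the other lines passes the filter on low counts only through HCC38, so the filter raises the higher share. The 3 higher genes are to be set against all 22 listed as well. Against MDA-MB-468 alone 3 were higher and 3 lower, and against SUM149PT alone 4 and 0. PRAME was at 74.7 and 74.9 CPM in HCC38 against 0.108, 0.0779, 0.0270 and 0.131 CPM in the other 4 libraries, log2 differences of 9.61 (SE 0.242, adjusted p = 2.8e-10) and 9.92 (SE 0.253, adjusted p = 4.3e-10).

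Of 28 tumour suppressor genes tested, RB1 was higher than in both lines and CDKN2A, FHIT and INPP4B were lower. This was 3.57% and 10.7%, beside 12.3% and 8.04% of all tested genes. RB1, the retinoblastoma gene, was at 79.4 and 83.9 CPM in HCC38, 0.941 and 2.44 CPM in MDA-MB-468, and 23.6 and 21.7 CPM in SUM149PT. CDKN2A, which encodes the inhibitor p16 that acts upstream of the RB1 protein (chromosome 9, 21967751 to 21995300, GRCh37), had 0 counts in both HCC38 libraries, 146 and 143 CPM in MDA-MB-468, and 0.108 and 0 CPM in SUM149PT. HCC38 was at least 4663-fold lower than MDA-MB-468 (3 counts over both HCC38 libraries as the limit). The difference from SUM149PT rested on 4 counts and was lost without SUM149PT R1, so HCC38 and SUM149PT could not be told apart. INPP4B, a phosphatase of the PI3K pathway, was at 9.62 and 10.00 CPM in HCC38, 31.2 and 31.3 CPM in MDA-MB-468, and 51.3 and 40.3 CPM in SUM149PT.

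HCC38 had fewer lost genes than either other line. A gene was counted as lost in a line when it had at most 3 counts over both libraries of that line and at least 1 CPM in each of the other 4 libraries. There were 20 such genes in HCC38 (0.102% of those tested), 139 in MDA-MB-468 and 129 in SUM149PT. The limit is a raw count and the HCC38 libraries were the deepest of the control libraries, so it is a lower level there. This favours fewer lost genes in HCC38. The number in HCC38 was 31 when HCC38 R1 was left out. Of the 20, 18 had a symbol, 15 were protein coding and 4 lay on chromosome 9. PLAA, a regulator of ubiquitin-dependent sorting and the lost gene with the highest level elsewhere, had 1 and 2 counts in HCC38 (0.0214 and 0.0400 CPM) against 47.7 and 41.8 CPM in MDA-MB-468 and 15.3 and 15.3 CPM in SUM149PT. The ratio of MDA-MB-468 to HCC38 was 1442 with a 95% exact counting interval of 493 to 6994. RSPH3, a radial spoke protein of cilia, had 1 and 1 counts in HCC38 against 11.9 and 13.7 CPM in MDA-MB-468 and 10.2 and 9.40 CPM in SUM149PT.

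PLAA belonged to a run on the short arm of chromosome 9. Between 21858909 and 27573864 (GRCh37), a stretch of 5.71 Mb, 12 consecutive tested genes had at most 3 counts over both HCC38 libraries, and 10 of them were protein coding. These were the long non-coding gene ENSG00000265194, CDKN2A, CDKN2B-AS1, CDKN2B, DMRTA1, ELAVL2, TUSC1, CAAP1, PLAA, IFT74, MOB3B and C9orf72. CDKN2B, a cyclin-dependent kinase inhibitor next to CDKN2A, had 0.0214 and 0.0200 CPM in HCC38 against 23.7 and 22.0 CPM in MDA-MB-468. CAAP1, a modulator of apoptosis, had 0 counts in HCC38, 15.8 and 17.4 CPM in MDA-MB-468, and 3.19 and 3.61 CPM in SUM149PT. C9orf72 also had 0 counts in HCC38, with 4.19 and 3.30 CPM in MDA-MB-468 and 1.46 and 1.74 CPM in SUM149PT. SUM149PT showed a run at the same place but with other ends. It had 5 consecutive genes at the floor from CDKN2B-AS1 to TUSC1, over 3.68 Mb, and 5 more on the other side of CDKN2A, from MIR31HG to ENSG00000265194, and it expressed CAAP1, PLAA, IFT74, MOB3B and C9orf72. MTAP, named afterwards as the gene just before the HCC38 run, had 6.69 and 8.34 CPM in HCC38, 30.2 and 28.1 CPM in MDA-MB-468, and 0 and 0.0329 CPM in SUM149PT. HCC38 thus had MTAP RNA where SUM149PT had next to none, and lacked the genes from CAAP1 to C9orf72 that SUM149PT had. MDA-MB-468 expressed the genes of the run throughout. DNA was not measured, so a deletion and a lack of transcription cannot be told apart.

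**Figure D4:**
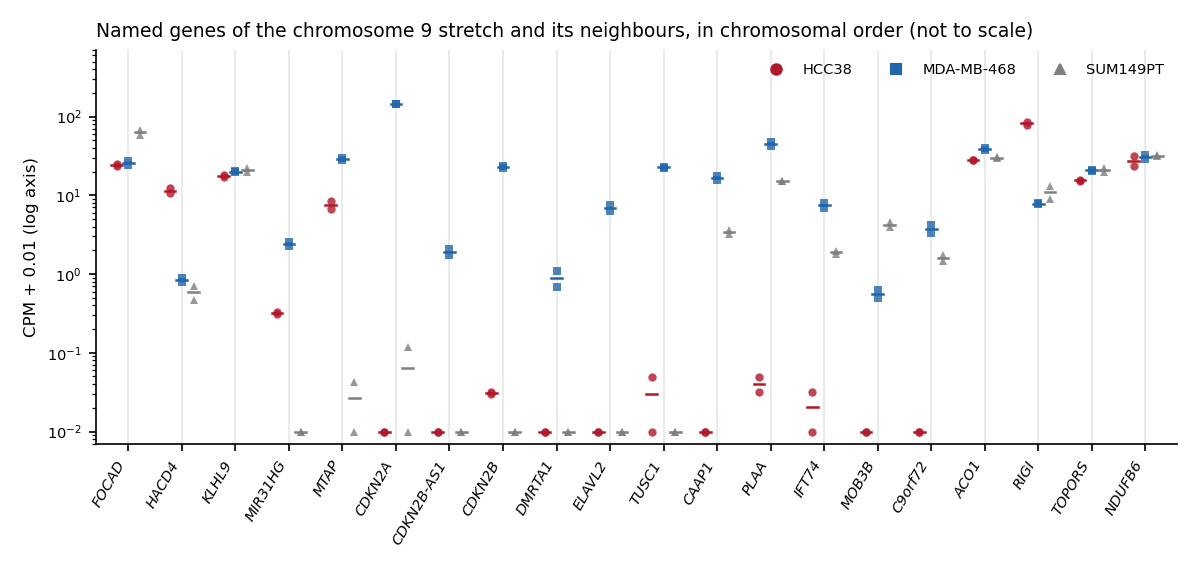
Levels of genes of the short arm of chromosome 9 from FOCAD to NDUFB6 in their chromosomal order, which is not to scale, as CPM + 0.01 on a log axis. Each dot is 1 library (HCC38 red circles, MDA-MB-468 blue squares, SUM149PT grey triangles) and short bars are means of 2 libraries; HCC38 is at the floor from CDKN2A to C9orf72, and SUM149PT is at or near 0 from MIR31HG to TUSC1 but not from CAAP1 on.

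Runs of this kind were not particular to HCC38. There were 3 runs of at least 4 genes at the floor in HCC38, with 21 genes in all, against 21 runs with 101 genes in MDA-MB-468 and 22 runs with 114 genes in SUM149PT. The greater depth of the HCC38 libraries favours fewer genes at the floor there. The second run of HCC38 lay in the epidermal cluster of chromosome 1 (152974223 to 153078660) and held SPRR3, SPRR1B, SPRR2D, SPRR2A and SPRR2E, which encode small proline-rich proteins of the cornified envelope. All 11 SPRR genes in the files were at the floor in HCC38, and their summed level was 0.0714 CPM as the mean of the HCC38 libraries, 2.90 CPM in MDA-MB-468 and 7.05 CPM in SUM149PT. Only 5 of the 11 passed the filter on low counts, and 2 of these were called lower in HCC38 than in both lines. Other genes at or near 0 in HCC38 lay outside such runs. ROBO1, the receptor for the guidance cue SLIT (chromosome 3, 78646389 to 79817148, GRCh37), was at 0.0428 and 0.0400 CPM in HCC38, 63.8 and 72.01 CPM in MDA-MB-468, and 68.0 and 48.4 CPM in SUM149PT, with log2 differences of -10.58 (SE 0.311, adjusted p = 6.8e-10) and -10.36 (SE 0.312, adjusted p = 1.2e-09). Its 4 counts over both HCC38 libraries were just above the limit for a lost gene. GBE1, picked afterwards as a neighbour of ROBO1, was at similar levels in all lines, 34.3 and 33.6 CPM in HCC38 against 28.0, 26.1, 34.0 and 30.8 CPM. SCEL, the sciellin of cornified envelopes, had 0 counts in HCC38 against 3.84, 3.22, 3.49 and 3.88 CPM in the other 4 libraries, so HCC38 was at least 114-fold lower than MDA-MB-468 and at least 118-fold lower than SUM149PT.

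The 12 largest differences below both lines, by the smaller of the 2 log2 differences, were MICOS10P3, ROBO1, SCEL, CAAP1, ARHGEF35, ZBED2, C9orf72, PLAA, GJB5, RSPH3, KRT78 and KRT17. Where HCC38 had 0 counts, the fitted difference and so the place in this order depend on the prior count. Of these, ZBED2, a zinc-finger factor of keratinocytes, had 0 counts in HCC38, 1.67 and 1.66 CPM in MDA-MB-468, and 16.5 and 17.8 CPM in SUM149PT. KRT78, an epithelial keratin, had 0 counts in HCC38 against 1.26, 1.04, 1.03 and 1.35 CPM. MICOS10P3 is a processed pseudogene and ARHGEF35 has a near-identical neighbour, so their reads may belong to other copies.

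Conversely, 170 genes were on in HCC38 only, with at least 1 CPM in both HCC38 libraries and at most 3 counts over both libraries of each other line (0.868% of the genes tested). The same count was 45 for MDA-MB-468 and 49 for SUM149PT. Their libraries were shallower than those of HCC38, which favours more such genes in HCC38. Of the 170, 153 had a symbol and 116 were protein coding. Chromosome X held 17 of them, or 2.68% of its 634 tested genes, chromosome 5 held 17 (1.97% of 863) and chromosome 17 held 19 (1.71% of 1109). RSPO4, a secreted enhancer of WNT signalling, had the highest level, at 105 and 114 CPM in HCC38 against 0.0269 and 0.0520 CPM in MDA-MB-468 and 0 CPM in SUM149PT. Its ratio to MDA-MB-468 was 2761 with a 95% exact counting interval of 945 to 13391, and it was at least 2459.8-fold higher than in SUM149PT. GFRA1, a co-receptor for the growth factor GDNF, was at 37.7 and 39.7 CPM in HCC38, with 0 counts in MDA-MB-468 and 1 count in SUM149PT. CCDC8, a component of the 3M complex, was at 33.0 and 36.3 CPM, HEPH, a copper-dependent ferroxidase, at 31.2 and 36.2 CPM, and PGAP4, an enzyme of GPI-anchor glycosylation, at 27.5 and 26.8 CPM in HCC38, each with at most 3 counts over both libraries of each other line.

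The 12 largest differences above both lines were HHLA1, NDN, ZNF560, SMIM10, ARMCX1, ABTB3, RSPO4, PCDHB17P, CD79B, FAR2P4, GFRA1 and GSPT2. For 10 of these all 4 other libraries had 0 counts. NDN, an imprinted gene expressed from the paternal allele, was at 15.2 and 12.6 CPM in HCC38, at least 349-fold above MDA-MB-468 and at least 311-fold above SUM149PT. ZNF560, a zinc-finger gene, was at 12.3 and 12.0 CPM, at least 306-fold and 273-fold above. CD79B, a chain of the B-cell receptor complex, was at 8.94 and 6.54 CPM, although HCC38 is an epithelial tumour line. PCDHB17P, FAR2P4 and GSPT2 have close relatives that share their sequence, so their counts are less certain.

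Several of these genes came from families or clusters, which were picked for description after their values were seen. Members on in HCC38 only passed the filter on low counts through HCC38 alone, which favours higher calls. The protocadherin beta genes encode cadherin-like surface proteins and lie in a row on chromosome 5. Of the 16 in the files, 14 were tested. All 14 were higher in HCC38 than in both lines, beside 12.3% of all tested genes, and 3 of them were on in HCC38 only. The summed level of the family was 189 and 209 CPM in HCC38, 16.8 and 16.5 CPM in MDA-MB-468, and 0.784 and 0.690 CPM in SUM149PT. PCDHB5 was at 39.5 and 45.4 CPM in HCC38, 0.699 and 0.572 CPM in MDA-MB-468, and 0 CPM in SUM149PT. PCDHB2 was an exception in MDA-MB-468, where it had 12.9 and 12.7 CPM beside 34.4 and 37.3 CPM in HCC38. The neighbouring protocadherin alpha genes were higher in 9 of 11 tested, and the gamma genes in 7 of 20, beside 12.3% of all tested genes. Since these genes share sequence and, in the alpha and gamma clusters, exons, the separate levels are uncertain, and the sums are the firmer values.

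The HOXB genes are homeobox factors of body-axis position on chromosome 17. They were higher in HCC38 than in both lines for 7 of 9 tested, beside 12.3% of all tested genes. Their sums were 203 and 224 CPM in HCC38, 39.1 and 39.4 CPM in MDA-MB-468, and 0.513 and 0.953 CPM in SUM149PT. HOXB9 was at 18.6 and 18.6 CPM in HCC38 against 0.0538, 0.104, 0 and 0.0657 CPM in the other 4 libraries. HOXB7 was among the HOXB genes not called in both comparisons, at 25.5 and 20.2 CPM in HCC38 and 15.4 and 15.1 CPM in MDA-MB-468, a difference under 2-fold. In the other HOX clusters, 1 of 10 HOXA genes and 3 of 9 HOXC genes tested were higher than in both lines. The HOXA share was near the 12.3% of all tested genes. No HOXD gene passed the filter on low counts.

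On chromosome X, all 5 BEX genes, small adaptor-like proteins of neurons, were higher in HCC38 than in both lines, beside 12.3% of all tested genes. Their summed level was 215 and 182 CPM in HCC38, 0.0269 and 0.0520 CPM in MDA-MB-468, and 13.6 and 14.8 CPM in SUM149PT. BEX4 was at 46.0 and 45.6 CPM in HCC38 and at or near 0 in both other lines, with 1 count in MDA-MB-468 and 3 counts in SUM149PT, whereas BEX1 was also expressed in SUM149PT at 7.70 and 7.82 CPM beside 19.4 and 17.1 CPM in HCC38. The ARMCX genes, armadillo-repeat proteins of mitochondria, lie near the BEX genes. Of 6 ARMCX genes, 5 were higher in HCC38 than in both lines, beside the same 12.3% of all tested genes. Their sums were 124 and 128 CPM in HCC38, 14.4 and 16.1 CPM in MDA-MB-468, and 10.0 and 10.3 CPM in SUM149PT. ARMCX1 was at 8.55 and 7.74 CPM in HCC38 with 0 counts in the other 4 libraries.

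**Figure D5:**
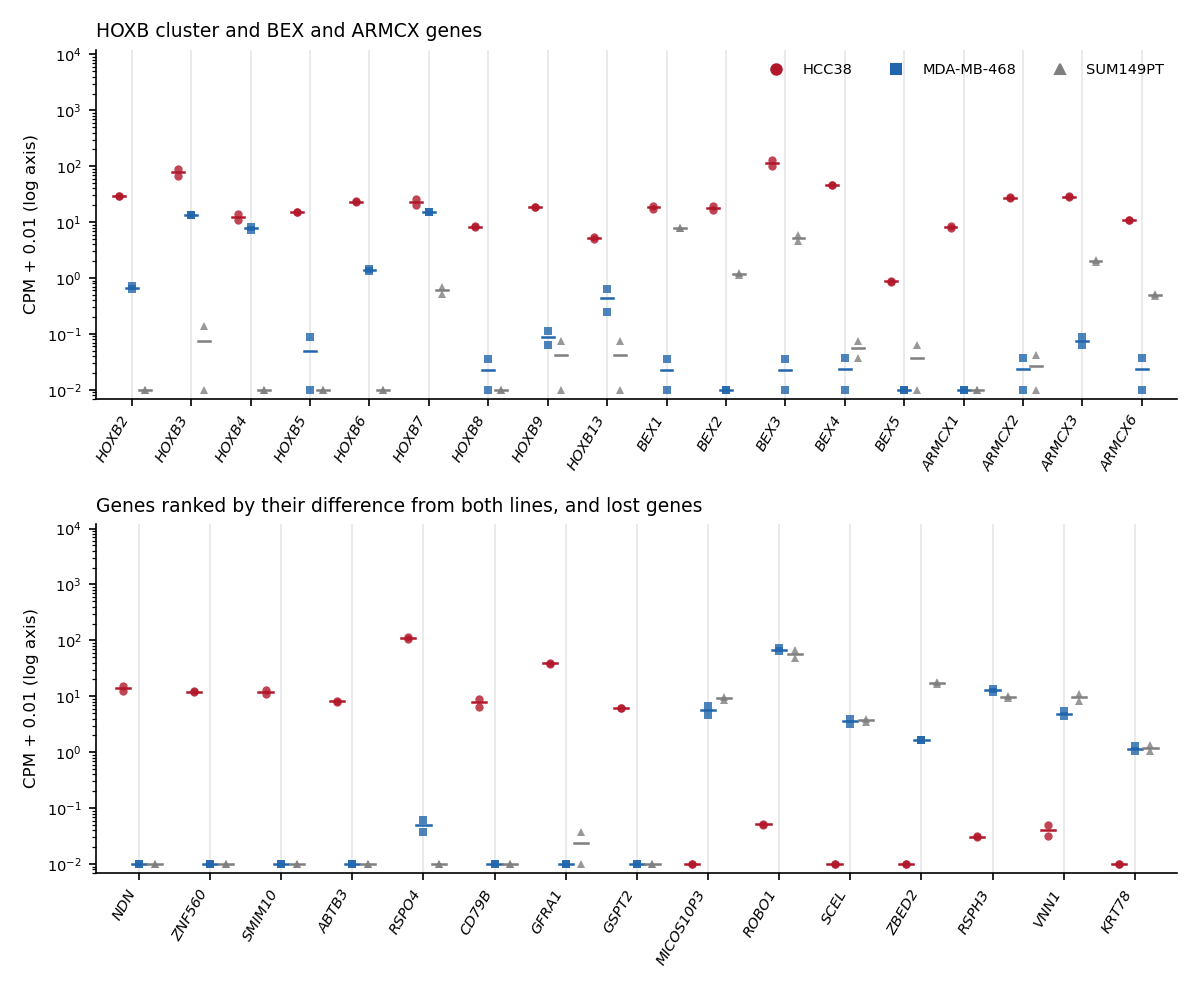
Levels of clustered gene families and of genes with the largest differences in the 6 control libraries, as CPM + 0.01 on a log axis. Each dot is 1 library (HCC38 red circles, MDA-MB-468 blue squares, SUM149PT grey triangles) and short bars are means of 2 libraries. Most of the HOXB, BEX and ARMCX genes drawn are highest in HCC38. NDN to GSPT2 are at or near 0 elsewhere, and MICOS10P3 to KRT78 are at or near 0 in HCC38.

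The long non-coding RNA that the study targets, LINC01956 (ENSG00000258910, chromosome 2, 119524541 to 119592686, GRCh37), was at 14.3 and 14.7 CPM in HCC38, 0.779 and 0.598 CPM in MDA-MB-468, and 10.8 and 11.3 CPM in SUM149PT. HCC38 was highest, with log2 differences of 4.39 (SE 0.189, adjusted p = 9.4e-09) and 0.40 (SE 0.140, adjusted p = 0.028), the second of which was under 2-fold. EN1, the homeobox gene that lies next to it (119599747 to 119605224), was at 53.9 and 60.1 CPM in HCC38, 9.38 and 8.91 CPM in MDA-MB-468, and 20.9 and 26.1 CPM in SUM149PT. EN1 was called higher than in both lines, with log2 differences of 2.64 (SE 0.139, adjusted p = 4.1e-08) and 1.28 (SE 0.130, adjusted p = 8.3e-06). Both genes had the same order of lines.

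Markers of leukocytes and of endothelial and erythroid cells were examined because such cells could also give mesenchymal and interferon transcripts. No list of stromal markers was used, so a stromal source was not tested. The endothelial marker PECAM1 had no match among the gene symbols. The summed level of 14 leukocyte markers was 818 and 824 CPM in HCC38, 15.7 and 14.4 CPM in MDA-MB-468, and 41.7 and 37.8 CPM in SUM149PT. Nearly all of the HCC38 sum came from LCP1, the actin-bundling protein plastin, at 804 and 810.2 CPM. The defining leukocyte markers were at or near 0, with 3 counts of PTPRC (CD45) over both HCC38 libraries and 0 counts of CD3E, and 6 of the 14 markers were at 0 in each HCC38 library. CD8A was at 1.92 and 2.18 CPM in HCC38, and its call against SUM149PT was lost without SUM149PT R2. For 13 endothelial and erythroid markers the sum was 119 and 128 CPM in HCC38, 39.8 and 41.0 CPM in MDA-MB-468, and 94.0 and 89.4 CPM in SUM149PT, with EGFL7 higher and CDH5 lower in HCC38 than in both lines. VWF, an endothelial marker, had 11 counts over both HCC38 libraries and did not pass the filter on low counts.

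The comparison was repeated in the 6 libraries given LNAs against LINC01956. There, 1826 of the 2404 higher genes (76.0%) and 947 of the 1576 lower genes (60.1%) were called again in the same direction against both lines. Genes not called again included CALD1, CRB3 and MUC1 in at least 1 comparison, as given above. LOXL2, a lysyl oxidase that cross-links collagen, changed direction and is named for that reason. It was at 68.7 and 75.5 CPM in HCC38 and 219.8 and 233 CPM in MDA-MB-468 in the control libraries, a log2 difference of -1.65 (SE 0.0993, adjusted p = 1.1e-07), and in the knock-down libraries the difference was 1.75 (adjusted p = 9.4e-10).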

How the data were processed

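RNA from 12 libraries of 3 lines had been sequenced by the authors, and each deposited file held raw read counts per Ensembl gene (GRCh37) with 5 summary lines from HTSeq. The submitters' processing notes name TopHat2 2.0.13 and HTSeq 0.6.0, whereas the study's methods name STAR, so the aligner is uncertain, and the setting for strand in the counting is not stated. Reads of overlapping or near-identical genes can therefore be lost or split. The summary lines held 40.8% to 53.7% of the counted reads and were left out of library sizes.

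The 6 LNA NS libraries were fitted with edgeR 4.0.16 (R 4.3.3), with 1 mean per line and 3 residual degrees of freedom. Genes were kept by filterByExpr (minimum count 10, minimum total 15), scaled by TMM and tested by quasi-likelihood with Benjamini-Hochberg adjustment over 19590 genes. CPM use TMM library sizes. Errors given as SE are for log2 differences with n = 2 libraries per line. Intervals and limits from counts cover counting error only. Gene symbols and coordinates were matched for 55665 of 63677 genes, and the unmatched genes held 0.620% of the counts. Promoters came from RefSeq (GRCh38.p14). The 2 libraries of each line differed beyond sampling noise, with chi-square per degree of freedom of 17.6 to 26.0, so none was counted as a duplicate.

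The members and the 18 lists were chosen with earlier results of these data known, and no set test was run. Genes named were the 3 markers, the 12 largest differences in each direction, up to 6 list members with the smallest adjusted p together with fixed junction and keratin genes, lost genes and genes on in HCC38 only by level, the targeted RNA and EN1, and all other genes named, full lists of called members included, were picked after their values were seen. Of 455 list entries, 2 symbols were not matched. On simulated counts of 18737 genes for HCC38 against both lines, 98% of genes changed 4-fold, 20% of genes changed 2-fold and 0% of genes changed 1.5-fold were called. Alternatives were DESeq2 1.42.0, RLE and upper-quartile scaling, no filter, all 12 libraries, the knock-down libraries, a replicate block and leaving out each library. A few members of the lists are counted but not reported here.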

Additional observations from a re-analysis of the deposited data

How the results depend on the processing

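Counts of genes called were within 1.5 times under every alternative for each line and for both lines together, with DESeq2 calling 2217 genes higher and 1460 lower than both lines. Among the mesenchymal genes, the number lower than both lines was 0 and ranged from 0 to 1 when 1 library was left out, with 1 gene without SUM149PT R1 and without HCC38 R1. The 20 lost genes became 7 with a floor of 0 counts and 2 with a minimum of 5 CPM, and they ranged up to 31 when 1 library was left out (without HCC38 R1). The 170 genes on in HCC38 only became 73 with a floor of 0 counts and 52 with 5 CPM. These changes follow from the thresholds themselves. The log2 difference of LOXL2 from MDA-MB-468 reversed to 1.75 in the knock-down libraries, and the cause was not tested.

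With the replicate number as a block, the calls against MDA-MB-468 were 4670 higher and 3965 lower, those against SUM149PT 4403 and 3469, and those against both 2352 and 1517, with 10 and 0 mesenchymal genes and 14 and 7 junction genes. The labels do not say that a number marks a shared culture, and the R1 deviations of the lines correlated at -0.31, 0.40 and -0.36, so the numbers were not taken as pairs. Over all comparisons of named and listed genes, DESeq2 lost 6 calls and gained 0, and the knock-down libraries lost 47 and gained 45. Depth limits the genes under about 1 CPM, where a call can rest on a few counts.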
